A study of Homo sapiens with 12 samples.

Results

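The 45 genes described here encode the E2F transcription factors and E-type cyclins that commit a cell to S phase and the proteins that license, open, copy and repackage DNA once it is there. They were chosen by gene symbol from a list of E2F factors, origin licensing, helicase, replication fork, nucleotide synthesis and chromatin duplication genes. All 45 symbols were found among the 45478 genes of the count table, and each had enough reads to be among the 19929 genes tested. The libraries come from 786-O and A498, established human clear cell renal cell carcinoma lines, called parental here, and from a sunitinib-resistant derivative raised from each, called resistant 786-O and resistant A498. Sunitinib is a small-molecule inhibitor of VEGF, PDGF and other receptor tyrosine kinases. Resistant 786-O was obtained as the cells that grew to confluence at 4 µM sunitinib and resistant A498 at 2 µM, over 4 months or more than 20 passages in drug, each as a single named culture, while the parental lines were given none. The labels record no other agent or genetic change in any of the 4 groups, and give the treatment of the sequenced cells as none, although each sample title also holds a code with the letters veh that the labels do not explain. Each group has 3 replicate libraries of mRNA. Whether these came from separate cultures is not stated, so that p-values measure the spread between libraries, which may be technical. Each group also carries its own batch label, and batch and group cannot be told apart.

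Total counts were 40845091 to 47972092 in parental 786-O, 42643735 to 46888482 in resistant 786-O, 21686648 to 34951585 in parental A498 and 20042519 to 25831163 in resistant A498. The member with the fewest reads, POLE2, had at least 94 in each library. The libraries labelled resistant A498 resembled the 786-O line more than A498: their median correlation over 19929 genes was 0.965 with parental 786-O, 0.988 with resistant 786-O and 0.91 with parental A498. For 62 genes at 10 CPM or more (CPM being counts scaled to the normalized size of the library) in parental A498 and with 3 counts at most in every parental 786-O library, the resistant A498 level was in the median 0.362% of the parental one. For 33 genes chosen in the opposite way, at 10 CPM or more in parental 786-O and near 0 in parental A498, it was 94.6% of the parental 786-O level. HIF1A, the oxygen-regulated factor, was at 8.42 to 9.07 CPM in resistant A498, 10.02 to 11.2 CPM in parental 786-O and 292 to 312 CPM in parental A498. Whether labels or cultures were exchanged was not tested, and values of resistant against parental A498 are a change within one line only if these labels hold. Values of resistant A498 are therefore given against both parental lines throughout. The kidney lineage factor PAX8 was at 194 to 314 CPM in the 12 libraries, whereas CA9, the carbonic anhydrase that marks most clear cell tumors, was at or near 0 in the parental 786-O, resistant 786-O and resistant A498 libraries and did not exceed 1.56 CPM in parental A498. The 8 T cell markers summed to 1.02 CPM at most in any library, and 1 of them, CD8A, had enough counts to be tested and was called higher in each resistant group than in its labelled parental group, at 0.546 CPM or less. The 6 fibroblast and endothelial markers summed to 4.68 to 4.84 CPM in parental 786-O, 7.71 to 8.79 CPM in resistant 786-O, 0.637 to 0.743 CPM in parental A498 and 21.6 to 23.6 CPM in resistant A498, while DCN, PECAM1 and CDH5 were at 0.186 CPM or less. The other 3, LUM, PDGFRB and VWF, were each called higher in resistant A498 than in both parental groups, with LUM at 15.2 to 17.7 CPM there. In resistant 786-O, 2 of these 3 were called higher than in parental 786-O. LUM was at 6.64 to 8.28 CPM in resistant 786-O and 4.44 to 4.47 CPM in parental 786-O. The part of these markers in the results was not tested. In bulk RNA, fewer cells in S phase and less transcript in each such cell cannot be told apart.

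In G1, the retinoblastoma protein RB1 and its relatives hold E2F factors inactive. Cyclin E with its kinase CDK2 helps to release E2F1, E2F2 and E2F3, which then activate the genes of DNA replication, while E2F7 and E2F8 repress the same genes later in S phase. Origins are licensed when ORC, CDC6 and CDT1 load the MCM helicase, and geminin prevents a second loading. Joining of CDC45 and GINS turns the loaded MCM ring into a running helicase, behind which polymerases, the PCNA clamp and its RFC loader copy the strands.

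E2F factors bind sites of the form TTTCCCGC, TTTCGCGC, TTTGCCGC or TTTGGCGC, and these letters were searched on both strands of RefSeq promoters (GRCh38.p14, 250 bases before to 50 after the annotated start). A promoter was on hand for 40 of the 45 members, the exceptions being E2F8, CCNE2, MCM4, MCM5 and GINS4. At least 1 match lay in 21 of the 40 (52.5%), compared with 908 of all 27305 promoters (3.33%) and 627 of 12603 promoters of genes tested here (4.98%). The stretches around the matches of 4 members are shown, one each for an E2F gene, a licensing gene, a helicase gene and a polymerase gene, with the matches in capitals, read 5′ to 3′ on the strand of the gene. A match on the opposite strand reads GCGGGAAA, GCGCGAAA, GCGGCAAA or GCGCCAAA.
E2F1 (chr20:33686386-33686438, minus strand): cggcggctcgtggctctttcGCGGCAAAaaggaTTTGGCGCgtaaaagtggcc
CDT1 (chr16:88803734-88803781, plus strand): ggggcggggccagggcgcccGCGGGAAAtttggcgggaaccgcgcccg
MCM6 (chr2:135876502-135876615, minus strand): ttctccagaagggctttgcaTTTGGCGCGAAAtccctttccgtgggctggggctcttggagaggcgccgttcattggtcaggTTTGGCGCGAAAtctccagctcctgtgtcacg
POLA1 (chrX:24693761-24693808, plus strand): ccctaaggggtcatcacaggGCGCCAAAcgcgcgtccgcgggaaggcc
The window of E2F1 ends at the base before its annotated start, that of CDT1 ends 8 bases before, that of MCM6 59 bases before and that of POLA1 110 bases before. In MCM6 each capital stretch holds a pair of overlapping matches, TTTGGCGC on the strand shown and TTTCGCGC on the other, so that 4 matches were counted. A match is a description of letters and no evidence that a factor binds there.

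The first comparison asks how transcript levels differed between resistant 786-O and its parental line. Lower levels in resistant 786-O were called for 40 of the 45 members and higher levels for none, where a call is a Benjamini-Hochberg adjusted p under 0.05, over all genes, in the quasi-likelihood test of edgeR. Differences followed by ± are log2 fold changes from this fit with their standard errors (n = 3 libraries a group). Across all genes tested, 33.5% were called lower and 35.0% higher in this comparison, and among the 10084 genes averaging 10 CPM or more 47.7% were called lower and 29.0% higher. The members' median log2 fold change was -0.48, or 71.9% of the parental 786-O level, beside a median of 0.03 over all genes and -0.13 over those averaging 10 CPM or more. In 38 of the 45 the resistant 786-O libraries all lay below the parental 786-O libraries, as did 34.4% of all genes and 48.0% of those averaging 10 CPM or more. E2F2, CDC6, GINS3, POLE and FEN1 were the 5 without a call. When libraries were scaled to total counts alone, the median of all genes moved to 0.18 and that of the members to -0.33, which left the members 0.51 below all genes under both scalings. Calls were then 33 lower and 1 higher. The share of all genes called lower fell from 33.5% to 25.8% and the share called higher rose from 35.0% to 42.9%.

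**Figure D1:**
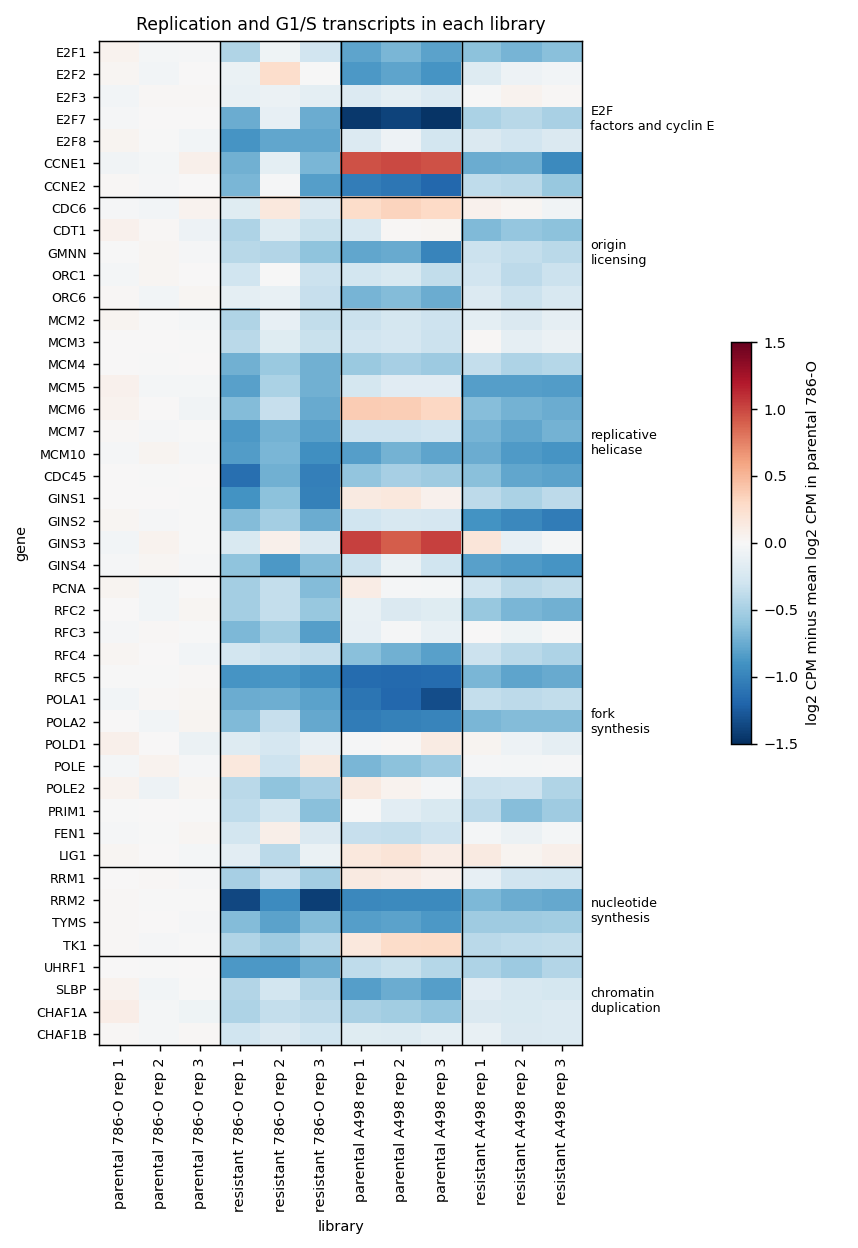
Level of each of the 45 transcripts (rows, by role) in each of the 12 libraries (columns), as log2 CPM minus the mean log2 CPM of the parental 786-O libraries; blue is lower and red higher. The resistant 786-O and resistant A498 columns are mostly blue, the parental A498 columns mix both colors, and replicate 2 of resistant 786-O is paler than the other 2.

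The replicate 2 library of resistant 786-O stood apart from the other 2. It was the highest of the 3 for 35 of the 45 members and the lowest for 7, with a median log2 excess of 0.19 over the mean of the others. The median of the members relative to parental 786-O was -0.50 in replicate 1, -0.35 in replicate 2 and -0.61 in replicate 3 of resistant 786-O on the log2 scale, and -0.41 to -0.35 in the resistant A498 libraries. Without replicate 2 of resistant 786-O, 43 members were called lower and 1 higher, beside 35.9% and 37.6% of all genes. CDC6 (log2 fold change -0.21), GINS3 (-0.23) and FEN1 (-0.25) were then called lower and POLE (0.15) higher, and E2F2 alone stayed without a call.

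Among the activator E2F genes, the resistant 786-O differences were small. E2F1, the factor best known for driving S phase entry, was at 113, 107 and 108 CPM in parental 786-O and at 80.02, 104 and 89.5 CPM in resistant 786-O. It was at 71.4, 67.2 and 70.8 CPM in resistant A498 and at 63.3, 68.2 and 62.6 CPM in parental A498. The parental 786-O libraries were the highest for E2F1, without overlap with any other group, and those of resistant A498 and parental A498 overlapped. The log2 fold change was -0.26 ± 0.07 (standard error) in resistant against parental 786-O (adjusted p = 0.0064) and -0.65 ± 0.08 in resistant A498 against parental 786-O (adjusted p = 2.9e-06), and 0.11 ± 0.08 in resistant against parental A498 (adjusted p = 0.21). The call in resistant 786-O was lost without replicate 1 of that group (-0.15) and with scaling to total counts (-0.12).

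E2F2 and E2F3 differed less in resistant 786-O. E2F2 was at 12.9, 12.3 and 12.8 CPM in parental 786-O, 11.8, 15.2 and 12.6 CPM in resistant 786-O, 6.94, 7.34 and 6.87 CPM in parental A498 and 11.1, 12.1 and 12.4 CPM in resistant A498. Its parental A498 libraries were the lowest and the other groups overlapped, with a log2 fold change of 0.06 ± 0.09 in resistant against parental 786-O and 0.75 ± 0.10 in resistant against parental A498. E2F3 lay between 34.9 and 41.8 CPM in all 12 libraries. Its log2 fold change in resistant 786-O was -0.11 ± 0.05 (adjusted p = 0.039), a call that was lost when any of 7 single libraries was left out and whose sign turned to 0.03 with scaling to total counts.

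The repressor genes E2F7 and E2F8 were lower in resistant 786-O by more. E2F8 was at 21.6, 21.0 and 20.4 CPM in parental 786-O and at 11.3, 12.3 and 12.2 CPM in resistant 786-O, with no overlap. In parental A498 it was at 18.3, 20.0 and 17.4 CPM and in resistant A498 at 18.1, 17.3 and 18.1 CPM, which overlapped each other. The log2 fold change was -0.81 ± 0.07 in resistant against parental 786-O (adjusted p = 5e-08), the largest of the E2F and cyclin E group in this comparison, and -0.24 ± 0.07 in resistant A498 against parental 786-O. E2F7 was at 73.6, 75.0 and 75.0 CPM in parental 786-O, 44.4, 68.4 and 44.5 CPM in resistant 786-O, 27.3, 28.4 and 26.9 CPM in parental A498 and 53.5, 55.9 and 53.2 CPM in resistant A498. Replicate 2 of resistant 786-O was close to the parental libraries, and the parental A498 libraries were lowest. Both resistant groups were below parental 786-O (log2 fold change -0.51 ± 0.12 in resistant 786-O and -0.46 ± 0.12 in resistant A498), whereas resistant A498 was above parental A498 by 0.98 ± 0.13.

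The paralogous E-type cyclins had opposite orders in the parental lines. CCNE1 was at 14.9, 15.1 and 16.3 CPM in parental 786-O, 9.39, 13.96 and 9.59 CPM in resistant 786-O, 29.8, 30.8 and 29.9 CPM in parental A498 and 9.24, 9.28 and 7.98 CPM in resistant A498. The parental A498 libraries were highest and the resistant A498 libraries lowest, with log2 fold changes of -1.77 ± 0.13 in resistant against parental A498 (adjusted p = 7e-09), -0.81 ± 0.13 in resistant A498 against parental 786-O and -0.49 ± 0.12 in resistant against parental 786-O. The difference of -1.77 was the largest of any member in the 3 comparisons with parental lines. CCNE2 was at 33.7, 32.8 and 33.5 CPM in parental 786-O, 20.8, 32.8 and 18.8 CPM in resistant 786-O, 16.3, 15.7 and 14.7 CPM in parental A498 and 25.6, 25.1 and 22.4 CPM in resistant A498. Replicate 2 of resistant 786-O overlapped the parental 786-O libraries, and the call in resistant 786-O (log2 fold change -0.47 ± 0.14, adjusted p = 0.0098) was lost without replicate 1 (-0.34) or replicate 3 (-0.30) of that group. Of the exonic bases of CCNE2, 1629 overlap genes on the opposite strand.

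**Figure D2:**
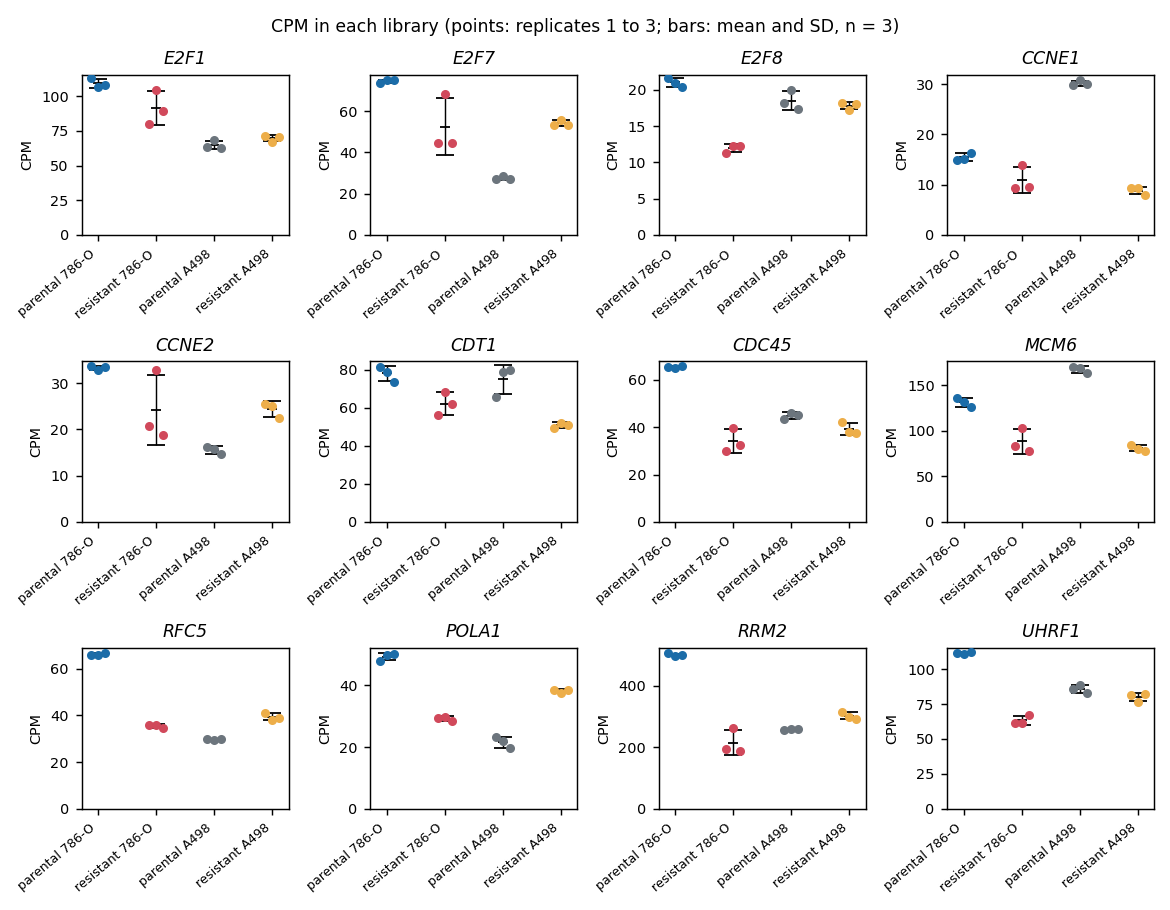
CPM of 12 members in each library (points, 3 replicates a group) with the mean and SD (bars, n = 3); each panel has its own axis starting at 0. For RRM2, CDC45, RFC5, POLA1 and UHRF1 the parental 786-O points lie above those of the other groups, and for CCNE1 and MCM6 the parental A498 points do.

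The licensing genes, which prepare origins in G1, had a median log2 fold change of -0.20 in resistant against parental 786-O, and 4 of the 5 were called lower. CDT1, the loading factor, was at 81.6, 78.9 and 73.8 CPM in parental 786-O, 56.4, 68.5 and 61.8 CPM in resistant 786-O, 65.9, 78.9 and 79.9 CPM in parental A498 and 49.3, 52.2 and 51.0 CPM in resistant A498. Both resistant groups lay below both parental groups except that 68.5 CPM in replicate 2 of resistant 786-O exceeded the lowest parental A498 library. Its log2 fold change was -0.33 ± 0.08 in resistant against parental 786-O, -0.62 ± 0.08 in resistant A498 against parental 786-O and -0.56 ± 0.08 in resistant against parental A498 (adjusted p = 0.0017, 7.2e-06 and 1.7e-05). GMNN, which encodes geminin, the inhibitor of CDT1, was at 53.4, 54.4 and 52.7 CPM in parental 786-O, 39.9, 39.4 and 35.1 CPM in resistant 786-O, 31.1, 31.8 and 27.0 CPM in parental A498 and 42.9, 41.8 and 40.3 CPM in resistant A498. Here the parental A498 libraries were the lowest, and resistant A498 was above parental A498 by 0.48 ± 0.07 but below parental 786-O, at -0.36 ± 0.07 on the log2 scale. ORC1 (-0.20 ± 0.07) and ORC6 (-0.20 ± 0.06), subunits of the origin recognition complex, were called lower in resistant 786-O, and both calls were lost without replicate 3 of resistant 786-O (-0.12 and -0.11). CDC6, which joins the complex, differed by -0.07 ± 0.08 (adjusted p = 0.42).

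The helicase genes were the group with the lowest median in both resistant lines relative to parental 786-O. In resistant 786-O 11 of the 12 were called lower, with a median log2 fold change of -0.66, and in resistant A498 10 of the 12, with a median of -0.71. CDC45, which activates the MCM ring, was at 65.5, 65.0 and 65.9 CPM in parental 786-O and at 30.0, 39.7 and 32.3 CPM in resistant 786-O. In parental A498 it was at 43.4, 46.2 and 45.1 CPM and in resistant A498 at 42.3, 38.1 and 37.6 CPM. The 4 groups were thus ordered parental 786-O, parental A498, resistant A498 and resistant 786-O by mean, with an overlap only between the resistant groups. The log2 fold change was -0.95 ± 0.08 in resistant against parental 786-O (adjusted p = 8.5e-08), -0.73 ± 0.08 in resistant A498 against parental 786-O and -0.19 ± 0.08 in resistant against parental A498 (adjusted p = 0.056).

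GINS2, a subunit of the GINS complex that joins CDC45, was at 68.0, 65.7 and 66.5 CPM in parental 786-O, 42.6, 47.0 and 39.7 CPM in resistant 786-O, 54.3, 56.7 and 56.1 CPM in parental A498 and 35.8, 34.1 and 32.2 CPM in resistant A498. No libraries of different groups overlapped, and the resistant groups were the lower. Its log2 fold change was -0.63 ± 0.06 in resistant against parental 786-O, -0.97 ± 0.06 in resistant A498 against parental 786-O and -0.71 ± 0.06 in resistant against parental A498. The other subunit genes did not move as one. GINS1 was lower in resistant 786-O, at -0.83 ± 0.08 and GINS4 at -0.70 ± 0.08, whereas GINS3 differed by -0.12 ± 0.09 (adjusted p = 0.23) in resistant against parental 786-O. GINS3 was at 46.7, 43.2 and 46.8 CPM in parental A498, the highest group, and at 26.0, 21.1 and 22.5 CPM in resistant A498, close to the 22.3, 23.7 and 22.8 CPM of parental 786-O.

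The MCM2 to MCM7 ring genes were each called lower in resistant 786-O than in parental 786-O, from -0.30 ± 0.06 for MCM3 to -0.80 ± 0.04 for MCM7. MCM7 was at 568, 553 and 559.7 CPM in parental 786-O and 308, 342 and 318 CPM in resistant 786-O, with a log2 fold change of -0.73 ± 0.04 in resistant A498 against parental 786-O as well. Its mean was 339 CPM in resistant A498 and 454 CPM in parental A498. MCM6 was at 136, 131 and 126 CPM in parental 786-O, 83.7, 103 and 77.8 CPM in resistant 786-O, 170.3, 169 and 163 CPM in parental A498 and 84.2, 80.1 and 77.9 CPM in resistant A498. Its resistant libraries all lay below its parental libraries, and the log2 fold change was -0.57 ± 0.08 in resistant against parental 786-O, -0.70 ± 0.08 in resistant A498 against parental 786-O and -1.05 ± 0.08 in resistant against parental A498 (adjusted p = 1.3e-05, 2.1e-06 and 1.4e-08). MCM5 likewise had its resistant groups below its parental groups by mean, with parental 786-O the highest. Its log2 fold changes were -0.66 ± 0.07, -0.83 ± 0.07 and -0.63 ± 0.07 in the same 3 comparisons. MCM3, by contrast, was higher in resistant A498 than in parental A498 by 0.22 ± 0.06, as was MCM4 by 0.12 ± 0.05, and MCM2 differed there by 0.13 ± 0.07 without a call. MCM10, a scaffold of helicase activation, was lower than in parental 786-O, at -0.81 ± 0.06 in resistant 786-O and -0.82 ± 0.06 in resistant A498. Its mean was 29.1 CPM in resistant A498 and 30.1 CPM in parental A498. Per kilobase of exon, MCM7 had the highest level of the helicase genes in parental 786-O, at 113 RPKM, beside 28.1 to 49.8 RPKM for MCM2 to MCM6. The divisor is all annotated exonic bases of a gene, 4960 for MCM7 and 9852 for MCM4, and not the length of a single transcript. In CPM the parental 786-O means of MCM7 and MCM4 were 560 and 445.

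**Figure D3:**
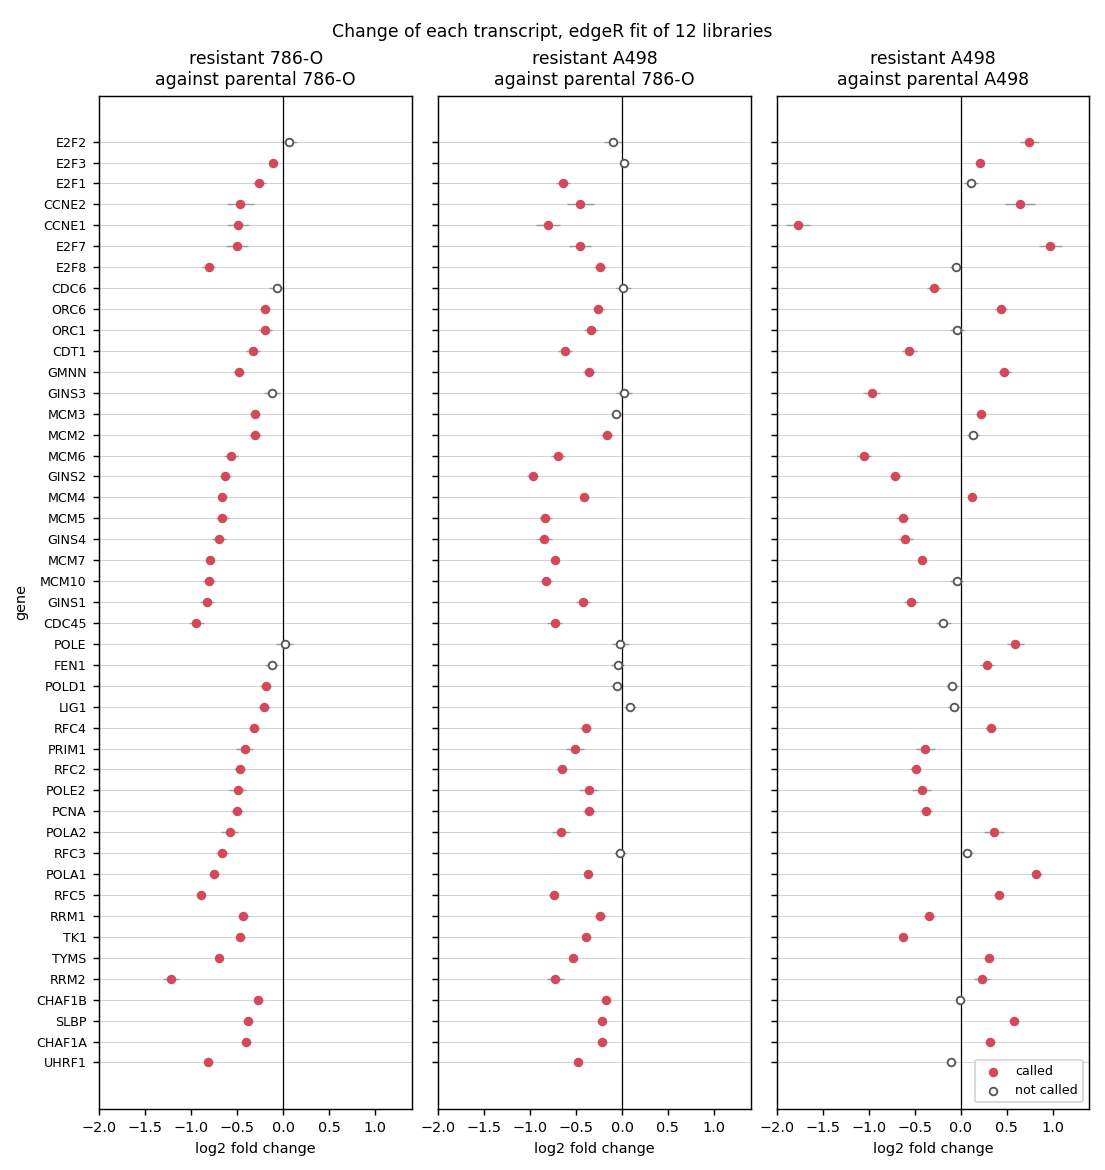
Log2 fold change of each member with its standard error (bars) in resistant against parental 786-O, resistant A498 against parental 786-O and resistant against parental A498; filled points have an adjusted p under 0.05. Filled points lie to the left of 0 in the first 2 panels and on both sides of it, from -1.77 to 0.98, in the third.

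At the replication fork, 11 of the 13 genes were called lower in resistant 786-O, with a median log2 fold change of -0.48. RFC5, a subunit of the clamp loader, was at 65.8, 65.6 and 66.9 CPM in parental 786-O, 35.8, 36.0 and 34.7 CPM in resistant 786-O, 29.7, 29.5 and 29.7 CPM in parental A498 and 41.1, 38.1 and 39.1 CPM in resistant A498. The 4 groups did not overlap, and resistant A498 lay between the parental lines. The log2 fold change was -0.90 ± 0.05 in resistant against parental 786-O (adjusted p = 2.7e-10) and -0.74 ± 0.05 in resistant A498 against parental 786-O, but 0.41 ± 0.05 in resistant against parental A498. The other loader genes RFC2, RFC3 and RFC4 were lower in resistant 786-O, at -0.48 ± 0.06, -0.67 ± 0.07 and -0.32 ± 0.05. RFC3 was a gene on which the resistant lines differed, at 24.8, 27.6 and 22.4 CPM in resistant 786-O and 39.8, 37.9 and 39.6 CPM in resistant A498, the latter within the 39.1 to 40.2 CPM of parental 786-O but for 1 library below.

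POLA1, the catalytic subunit of the polymerase that lays down primers with PRIM1, was at 48.1, 49.8 and 50.3 CPM in parental 786-O, 29.5, 29.8 and 28.3 CPM in resistant 786-O, 23.1, 21.8 and 19.7 CPM in parental A498 and 38.6, 37.6 and 38.4 CPM in resistant A498. Again no groups overlapped and resistant A498 lay between the parental lines. Its log2 fold change was -0.76 ± 0.06 in resistant against parental 786-O, -0.37 ± 0.06 in resistant A498 against parental 786-O and 0.82 ± 0.06 in resistant against parental A498 (adjusted p = 1.7e-08, 4.3e-05 and 8.2e-09). POLA2, its accessory subunit, was lower in resistant 786-O, at -0.58 ± 0.09 and PRIM1 at -0.42 ± 0.09. Part of the exonic sequence of POLA2, POLD1 and PRIM1 (2012, 426 and 362 bases) overlaps another annotated gene on the same strand, which makes their counts less certain. PCNA, the sliding clamp, was at 192, 181 and 188 CPM in parental 786-O and 131, 146 and 119 CPM in resistant 786-O, a log2 fold change of -0.50 ± 0.06, with -0.35 ± 0.07 in resistant A498 against parental 786-O and -0.38 ± 0.07 in resistant against parental A498.

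Of the leading and lagging strand enzymes, POLE, POLD1, LIG1 and FEN1 had small differences from parental 786-O. POLE, the leading strand polymerase, was at 96.4, 102 and 96.8 CPM in parental 786-O, 110.0, 79.2 and 109 CPM in resistant 786-O, 61.2, 64.4 and 67.6 CPM in parental A498 and 97.6, 96.6 and 97.3 CPM in resistant A498. In resistant 786-O its replicate 2 was below and the other 2 libraries above the parental 786-O range. POLD1, the lagging strand polymerase (-0.19 ± 0.06), and LIG1, the ligase that seals Okazaki fragments (-0.21 ± 0.06), were called lower in resistant 786-O by small amounts, and FEN1, the flap nuclease, differed by -0.13 ± 0.07 (adjusted p = 0.12). None of POLE, POLD1, LIG1 or FEN1 was called in resistant A498 against parental 786-O, with log2 fold changes of -0.05 to 0.09. Against parental A498, resistant A498 was called higher for POLE (0.59, adjusted p = 4.6e-05) and FEN1 (0.29, adjusted p = 0.0025). POLE2, a further subunit of the leading strand polymerase, averaged 5.60 CPM in parental 786-O and 3.97 CPM in resistant 786-O. It averaged 5.83 CPM in parental A498 and 4.36 CPM in resistant A498. Its resistant libraries all lay below its parental libraries.

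Nucleotide synthesis held the largest difference in resistant 786-O. RRM2, the S phase subunit of ribonucleotide reductase, which makes deoxyribonucleotides, was at 506, 497.96 and 499 CPM in parental 786-O and at 195, 262 and 188 CPM in resistant 786-O. In parental A498 it was at 256, 259 and 259 CPM and in resistant A498 at 315, 300.3 and 294 CPM. The parental 786-O libraries were far above the rest, and resistant A498 lay between the parental lines. The resistant 786-O mean was 42.9% of that in parental 786-O (log2 fold change -1.22 ± 0.09, adjusted p = 1.6e-08), the resistant A498 mean 60.5% (-0.73 ± 0.09), and resistant A498 was above parental A498 by 0.23 ± 0.09 (adjusted p = 0.03), a call that was lost when any parental A498 library or replicate 1 of resistant A498 was left out (0.23 to 0.24). RRM1, the large subunit, which is more stable through the cycle, was lower in resistant 786-O, at -0.44 ± 0.06 and in resistant A498 at -0.23 ± 0.06 relative to parental 786-O. Its mean was 149 CPM in resistant A498 and 189 CPM in parental A498.

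TK1, the thymidine salvage kinase, was at 239, 233 and 235 CPM in parental 786-O, 172, 162 and 177 CPM in resistant 786-O, 262, 285 and 287 CPM in parental A498 and 177, 181 and 182 CPM in resistant A498. Both resistant groups lay below both parental groups. The log2 fold change was -0.47 ± 0.05 in resistant against parental 786-O, -0.39 ± 0.05 in resistant A498 against parental 786-O and -0.63 ± 0.05 in resistant against parental A498 (adjusted p = 4.4e-07, 3.7e-06 and 1.1e-08). TYMS, the thymidylate synthase and target of fluoropyrimidines, was lower than in parental 786-O, at -0.70 ± 0.05 in resistant 786-O and at -0.53 ± 0.05 in resistant A498, and 967 of its exonic bases overlap genes on the opposite strand. The TYMS mean was 183 CPM in resistant A498 and 149 CPM in parental A498.

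The 4 genes that duplicate chromatin behind the fork were each called lower than in parental 786-O in both resistant lines. UHRF1, which recruits the maintenance DNA methyltransferase to newly copied DNA, was at 112, 111 and 112 CPM in parental 786-O, 61.6, 61.7 and 67.1 CPM in resistant 786-O, 85.7, 88.5 and 83.1 CPM in parental A498 and 81.2, 76.4 and 82.2 CPM in resistant A498. The resistant 786-O libraries were the lowest and those of parental 786-O the highest. The log2 fold change was -0.81 ± 0.05 in resistant against parental 786-O (adjusted p = 1.6e-09) and -0.48 ± 0.05 in resistant A498 against parental 786-O, with -0.10 ± 0.05 (adjusted p = 0.079) in resistant against parental A498. SLBP, which binds the stem-loop of histone mRNAs, was at 143, 134 and 138 CPM in parental 786-O, 102, 114 and 102 CPM in resistant 786-O, 77.7, 82.4 and 78.1 CPM in parental A498 and 123, 117 and 115 CPM in resistant A498. Its parental A498 libraries were the lowest, and resistant A498 was above parental A498 by 0.58 ± 0.05 but below parental 786-O, at -0.22 ± 0.05. The chromatin assembly factor genes CHAF1A and CHAF1B were lower in resistant 786-O, at -0.41 ± 0.05 and -0.27 ± 0.05.

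Counted over the 45 members, resistant A498 against parental 786-O gave 35 called lower and none higher, with a median log2 fold change of -0.39, where 32.1% of all genes were called lower, 31.6% higher and the median of all genes was 0.00. Among genes averaging 10 CPM or more, 44.4% were called lower and 30.6% higher, with a median of -0.09. In 36 members the resistant A498 libraries all lay below those of parental 786-O, beside 37.2% of all genes and 50.1% of those averaging 10 CPM or more. Since resistant A498 and resistant 786-O share the parental 786-O libraries in these comparisons, the members' values are given side by side and not as independent observations. With scaling to total counts 26 members were called lower and 2 higher, beside 23.8% and 39.8% of all genes. The median of all genes was then 0.15 and that of the members -0.24.

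Against its labelled parental line, resistant A498 differed in both directions, in shares near those of all genes. Higher levels in resistant A498 were called for 18 members and lower levels for 16, against 36.3% and 36.4% of all genes (43.2% and 38.0% of those averaging 10 CPM or more), and the median log2 fold change was -0.04. Of the helicase genes 7 were called lower and 2 higher, with a median of -0.48. E2F factors and E-type cyclins had 4 higher and 1 lower, the fork genes 6 higher and 4 lower, and the chromatin genes 2 higher and none lower. At one end of the range stood CCNE1, MCM6, GINS3 (-0.97 ± 0.09) and GINS2, and at the other E2F7, POLA1, E2F2 and CCNE2 (0.65 ± 0.16).

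A test of the difference between the 2 changes (resistant against parental A498, and resistant against parental 786-O) called 28 members with a higher value in the A498 pair and 4 with a lower one, beside 33.9% and 34.4% of all genes and 46.7% and 30.6% of those averaging 10 CPM or more.

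The parental lines were also compared with each other. Of the 45 members, 31 were called higher in parental 786-O than in parental A498 and 6 lower, where 38.2% and 36.1% of all genes were, and 49.7% and 32.2% of those averaging 10 CPM or more. The 6 that were higher in parental A498 were CCNE1, CDC6, MCM6, GINS3, LIG1 and TK1, of which LIG1 (0.17) and TK1 (0.10) were higher in parental 786-O once GC and length trends were removed. E2F7 (log2 fold change 1.44 ± 0.13), POLA1 (1.19 ± 0.06) and RFC5 (1.16 ± 0.05) had the largest differences in favor of parental 786-O. Between the resistant lines, 15 members were called higher in resistant A498 than in resistant 786-O and 4 lower, namely E2F1, CDT1, GINS2 and RFC2, with a median log2 fold change of 0.09. The shares of all genes were 23.0% in each direction, and those of genes averaging 10 CPM or more 33.2% and 26.3%. The share of members called higher is at that of genes averaging 10 CPM or more. Without replicate 2 of resistant 786-O, 32 members were called instead of 19, as were 53.3% of all genes. Of these members 26 were higher and 6 lower, beside 26.7% and 26.6% of all genes. The widest of these differences were those of RFC3 (0.65 ± 0.07) and E2F8 (0.58 ± 0.07).

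By group mean, parental 786-O was the highest of the 4 groups for 31 members, parental A498 for 11, resistant 786-O for 2 (E2F2 and POLE) and resistant A498 for 1 (E2F3). The lowest group was resistant 786-O for 19 members, parental A498 for 16 and resistant A498 for 10, and parental 786-O for none.

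Replication genes outside the 45 include the ORC2 to ORC5 subunits, the DBF4-CDC7 kinase, the RPA single-strand binding proteins and the nucleotide enzyme DUT. Of 40 such genes 34 were called lower in resistant 786-O than in parental 786-O and 1 higher, with a median log2 fold change of -0.42. For this and the next lists the shares are those given above, in resistant 786-O 33.5% of all genes lower and 35.0% higher, in resistant A498 32.1% and 31.6% against parental 786-O and 36.4% and 36.3% against parental A498. Relative to parental 786-O, 28 were lower and 1 higher in resistant A498 (median -0.27), and relative to parental A498, 22 were higher and 10 lower (median 0.20). CHTF18, of an alternative clamp loader, was the one called higher in resistant 786-O (0.87). Its resistant 786-O libraries spread from 30.2 to 64.0 CPM, beside 27.8 to 28.3 CPM in parental 786-O. POLE4, a small subunit of the leading strand polymerase, was the lowest in resistant 786-O (-1.16), in resistant A498 against parental 786-O (-1.33) and in resistant against parental A498 (-2.69).

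Among 14 genes of the RB family, the DP partners, other E2F factors and their complexes, 10 were called lower and 2 higher in resistant 786-O (median -0.27), from E2F5 at -0.64 to LIN37, of the DREAM complex, at 1.12. In resistant A498 against parental 786-O 5 were lower and 3 higher (median 0.02), near the shares of all genes, from E2F4 at -0.61 to SKP2, of the ligase that degrades the inhibitor p27, at 0.54, and against parental A498 10 were higher and 2 lower (median 0.33). RB1 itself had a log2 fold change of -0.47 in resistant against parental 786-O and -0.12 in resistant A498 against parental 786-O, the latter without a call. Its mean was 100 CPM in resistant A498 and 60.2 CPM in parental A498.

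The mitotic and G2/M genes, which act later in the cycle, were lower in resistant 786-O as well. Of 22 genes 19 were called lower and none higher, with a median log2 fold change of -0.62, from KIF20A at -1.23 to TOP2A at 0.03. Replicate 2 of resistant 786-O, the highest of its group for most members, was the lowest of its group for all 22 of these genes, with a median log2 deficit of -0.46 from the mean of the other libraries. Without it 19 were called lower and 1, TOP2A, higher, with a median of -0.54, beside 35.9% and 37.6% of all genes. In resistant A498 against parental 786-O 15 were lower and 1 higher (median -0.30), from CDC20 at -1.22 to TOP2A at 0.51. Against parental A498 14 were higher and 3 lower (median 0.31), from CCNB1 at -0.79 to MKI67 at 1.09. Of the 22, 20 were called higher and 1 lower in parental 786-O than in parental A498. The shares there were 38.2% and 36.1% of all genes and 49.7% and 32.2% of those averaging 10 CPM or more.

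**Figure D4:**
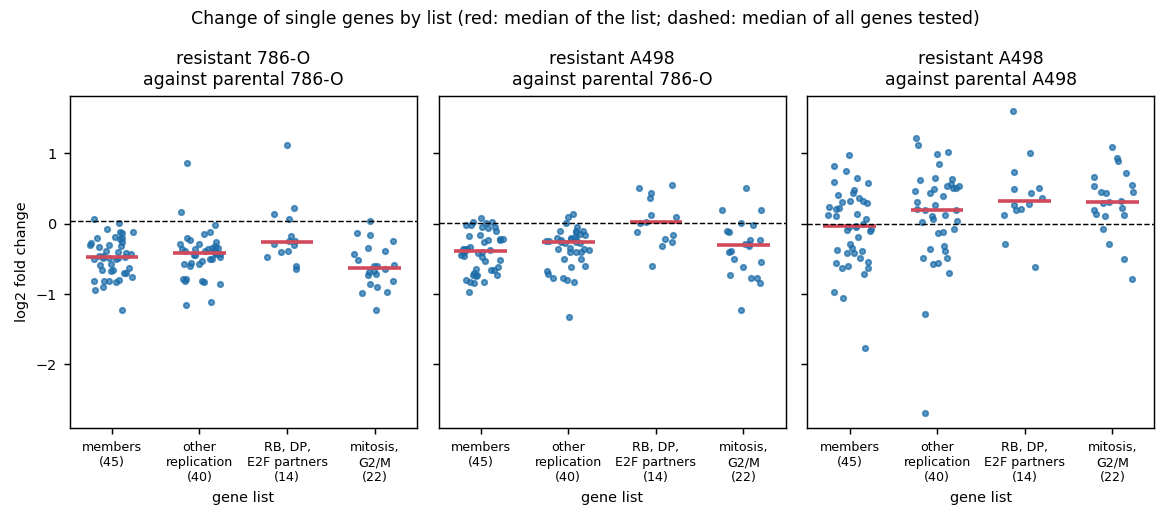
Log2 fold change of each gene (points) in the 45 members and 3 further lists, with the median of each list (red line) and of all genes tested (dashed line), in the 3 comparisons of resistant with parental libraries. The members' medians are -0.48, -0.39 and -0.04, and those of the mitotic list are -0.62, -0.30 and 0.31.

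The promoters of the members and of the mitotic genes held different letters. Matches to the cell cycle homology element searched as TTTGAA or TTTAAA lay in 5 of 40 member promoters (12.5%) and in 12 of 16 promoters of mitotic genes (75.0%), beside 16.5% of promoters of genes tested. E2F matches lay in 1 of the 16. CCAAT boxes were found in 22 of 40 (55.0%) and 13 of 16 (81.2%), beside 36.1%. Within the members, the counts were set side by side for those with and without an E2F match. In resistant against parental 786-O, 17 of 21 with a match were called lower (median -0.50) and 18 of 19 without one (median -0.44), and in resistant A498 against parental 786-O 13 of 21 (median -0.36) and 17 of 19 (median -0.39). E2F1, CDT1, MCM6 and POLA1, whose sequences are shown above, were each in the called group of both comparisons, as were RRM2, CDC45 and RFC5, whose windows held no match.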

How the data were processed

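Paired-end mRNA libraries (TruSeq Stranded) of 4 groups with 3 libraries each were used. The authors deposited raw gene counts for 45478 genes, which they made by trimming with Trimmomatic 0.36.6, aligning to GRCh38/hg38 with HISAT2 2.1.0 and counting exonic reads with featureCounts 1.6.3 and a GENCODE annotation. The stated strand setting counts reads on the strand of the gene, whereas this kit usually needs the reverse setting. ACTB, EEF1A1 and GAPDH ranked 1, 6 and 7 by counts and genes named as antisense held 1.05% to 1.22% of them, so the counts were used as deposited, with genes that overlap others on the opposite strand (CCNE2, GINS4, MCM2 and TYMS most, by 967 to 1629 exonic bases) less certain. Groups were taken from the sample titles. The 45 members and the further gene lists were chosen with earlier results of these data known.

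From the counts, genes with low counts were removed by filterByExpr, libraries were scaled by TMM and 1 quasi-likelihood fit with 4 group means was made across 19929 genes in edgeR 4.0.16 (R 4.3.3). Adjusted p-values are Benjamini-Hochberg values over all genes tested in a comparison, with a threshold of 0.05. CPM relates the counts to the TMM-normalized library size, and RPKM divides it by exonic kilobases. Standard errors were derived from the test statistic. Gene lengths and positions come from GENCODE and promoters from RefSeq. Library depth was 20042519 to 47972092 counts, and precision is given as the standard error from this fit, in which all groups share the estimate of spread. On simulated counts for resistant against parental 786-O, 168 of 200 genes changed 2-fold were recovered with 6 false calls among 19157 genes. In the data 68.5% of all genes were called in this comparison, and the members' median log2 fold change was -0.48. Recovery of differences smaller than 2-fold was not tested, nor was the number of false calls where most genes differ.

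Members shown in every library are the E2F and cyclin E genes and, within each role, the member with the largest absolute log2 fold change in a comparison of resistant with parental libraries; a few others (GINS3, MCM7, RFC3, PCNA and POLE) were added after their values were seen. Alternatives were other scalings and filters, fits of the compared groups alone, a replicate block, removal of GC and length trends, thinning to the smallest library, the Wald test of DESeq2 1.42.0, the study's own test on unscaled counts, a minimum fold and leaving out each library. Batch could not enter a model.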

Additional observations from a re-analysis of the deposited data

Results flagged for a closer look

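The change in resistant against parental A498 was compared with that in resistant against parental 786-O by a test of the difference itself, the contrast of the 2 log2 fold changes in the same edgeR fit with Benjamini-Hochberg adjustment. Of the 45 members, 28 had a higher value in the A498 pair and 4 a lower one, beside 33.9% and 34.4% of all genes, with a median difference of 0.42. The members with a difference of more than 1 on the log2 scale were CCNE1 at -1.28 ± 0.18 (standard error, adjusted p = 1.1e-05), CCNE2 at 1.11 ± 0.21 (adjusted p = 0.0003), RFC5 at 1.31 ± 0.07 (adjusted p = 1.8e-10), RRM2 at 1.45 ± 0.13 (adjusted p = 8.4e-08), E2F7 at 1.48 ± 0.17 (adjusted p = 2.2e-06) and POLA1 at 1.58 ± 0.08 (adjusted p = 2.7e-10). Beside these, the log2 difference of parental 786-O over parental A498 was -0.97 for CCNE1, 1.10 for CCNE2, 1.16 for RFC5, 0.96 for RRM2, 1.44 for E2F7 and 1.19 for POLA1, the same sign in each, and the libraries labelled resistant A498 were nearer to parental 786-O than to parental A498. By its definition, each difference is the sum of this parental difference and the log2 difference of resistant A498 over resistant 786-O. The parental values are therefore part of the differences, and what underlies them was not tested.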

How the results depend on the processing

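The number of members called stayed within 1.5 times that of the main fit under other scalings, filters, the fit of the compared groups alone, the GC and length correction, thinning and DESeq2. Which members were called could change. With GC and length trends removed, resistant A498 against resistant 786-O lost the calls of 6 members, gained 7 and turned the sign of 1. In the fit of these groups alone, resistant against parental 786-O lost 7 calls. The number called did not stay within that range under 2 alternatives. The study's own unadjusted test on unscaled counts called 17 members in resistant against parental 786-O, 7 in resistant against parental A498 and 39 in resistant A498 against resistant 786-O. All 39 were called lower, where the main fit called 15 higher and 4 lower. In resistant A498 against parental 786-O the study's test called all 45 members lower, beside 58.1% of all genes lower and 8.3% higher. In resistant against parental 786-O and resistant against parental A498 it called 11 and 8 of the other replication genes, 4 and 2 of the RB list and 8 and 3 of the mitotic list. The paper names gene counts for this test and no scaling. It was run here on unscaled counts, so library depth enters it. With an absolute log2 fold change over 1 also required, 1, 2 and 0 members were called in resistant against parental 786-O, resistant against parental A498 and resistant A498 against parental 786-O, 5 in parental 786-O against parental A498, 0 in resistant A498 against resistant 786-O and 6 in the difference of the changes; in the first 3 comparisons this left 2, 5 and 1 of the other replication genes, 1, 2 and 0 of the RB list and 1, 1 and 1 of the mitotic list.

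The median log2 fold change of the members moved by more than the spread between libraries in these cases. With scaling to total counts it was -0.33 in resistant against parental 786-O, 0.028 in resistant against parental A498, -0.24 in resistant A498 against parental 786-O, 0.21 in parental 786-O against parental A498 and 0.34 in the difference, with the medians of all genes moving alike. In resistant against parental A498 it was 0.0009 with no filter and 0.037 with GC and length trends removed. In resistant A498 against parental 786-O it was -0.35 with DESeq2 size factors, -0.34 with at least 10 counts in every library and -0.35 in the fit of these groups alone. In parental 786-O against parental A498 it was 0.24, 0.22 and 0.25 under the same 3, 0.35 with no filter, 0.48 with GC and length trends removed and 0.25 after thinning, and in the difference 0.33 with at least 10 counts and 0.59 with the trends removed. The cause was not tested.

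Leaving out 1 library at a time gave 35 to 44 members called in resistant against parental 786-O, 32 to 35 in resistant A498 against parental 786-O, 32 to 38 in resistant against parental A498, 33 to 39 in parental 786-O against parental A498, 16 to 32 in resistant A498 against resistant 786-O (32 without replicate 2 of resistant 786-O) and 30 to 36 in the difference. The medians were -0.51 to -0.39, -0.40 to -0.35, -0.057 to 0.022, 0.27 to 0.32, 0.08 to 0.15 and 0.36 to 0.49 in that order.

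Single members changed sign under the GC and length correction: CDT1 in resistant A498 against resistant 786-O (0.013) and in the difference (0.49), GINS1 (-0.084), RFC2 (0.18) and TK1 (0.48) in the difference, RFC3 (-0.19), LIG1 (0.17), TK1 (0.10) and POLD1 (0.42) in parental 786-O against parental A498, POLD1 in resistant against parental A498 (0.22) and POLE in resistant against parental 786-O (-0.28). E2F3 did so in resistant against parental 786-O with scaling to total counts (0.029).

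Replicate numbers are shared by the groups, but correlations of same-numbered libraries were -0.227 to 0.239 and over 0.1 in 3 of 18 pairs, so they were not taken to pair the samples. A fit with the replicate block called 40 members in resistant against parental 786-O (median -0.49), 34 in resistant against parental A498 and 35 in resistant A498 against parental 786-O.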
